A study of Mus musculus with 6 samples.

Results

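Genes of the macrophage response to LPS were followed in single cells, from the surface receptor to the enzyme that inactivates LPS. They were listed by their role in the pathway, and all 10 had a row among the 18429 genes of the count matrix: Tlr4, Cd14 and Ly96 for sensing, Myd88 and Ticam1 as adaptors, Irak2, Traf6 and Peli1 for signal transmission, Irak3 as an inhibitor, and Aoah for the inactivation of LPS. The cells were macrophages grown from mouse bone marrow and assayed by MARS-seq, in which cells are sorted into plates and transcripts are counted from their 3' ends by unique molecular identifiers (UMIs). Wild-type and Rad21-/- macrophages, untreated or given 10 ng/ml of LPS for 2 or 8 h, made up 6 groups of 1 sample each. All groups carried an ERt2Cre recombinase at Rosa26 and were treated in culture with 4-hydroxytamoxifen, with Rad21 WT/WT alleles in the wild-type groups and Rad21 lox/lox alleles in the Rad21-/- groups, on a mixed background of C57BL/6 and another strain. The study used mice of both sexes aged from 6 weeks to 6 months, a range given for its experiments as a whole. Because Cre was induced in a culture of cells, a Rad21-/- sample can hold some cells that kept an allele.

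LPS, a glycolipid of the bacterial outer membrane, is extracted by CD14 and handed to a complex of TLR4 and MD-2, the protein encoded by Ly96. At the plasma membrane this complex signals through MYD88, the IRAK kinases and TRAF6 to NF-kappaB and MAP kinases, and from endosomes it signals through TRIF, the product of Ticam1, to type I interferon. Macrophages limit the response with inhibitors such as IRAK3, a kinase family member that restrains the MYD88 arm, and with acyloxyacyl hydrolase, the product of Aoah, which strips fatty acyl chains from LPS. Rad21 encodes a subunit of cohesin, the ring complex that folds chromatin into loops.

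The 6 samples held 1362 cells, 682 of them wild-type and 680 Rad21-/-, with 1417409 to 2195921 UMIs per sample and medians between 5577 and 7055.5 UMIs per cell. In 17 wells there were more than 25000 UMIs, and they took up 45.5% of the UMIs in wild-type cells at 2 h and at most 16.96% in any other sample. Levels are therefore given as the mean over cells of each cell's UMIs of a gene per 1000000 UMIs (CPM), in which every cell weighs the same. No pool and well barcode was shared by 2 cells. With 1 sample per group there was no replicate check and no test, and all intervals are 95% intervals that cover counting error only: exact Clopper-Pearson for shares, Newcombe for differences of shares, and exact binomial for the log2 ratio of summed UMIs. A gene is said to rise or fall where its mean CPM differed by at least 2-fold and it had at least 100 UMIs in both samples together. Each of the 24 library pools held a single time point and 23 held both genotypes, so genotypes were also compared inside pools with at least 10 cells of each. Pools are parts of the same samples, so a count of pools is not a count of replicates. Rad21 itself, the targeted gene, was found in 25.9, 26.9 and 18.7% of wild-type cells at 0, 2 and 8 h and in 2.96, 6.45 and 5.80% of Rad21-/- cells. Its UMIs come from the 3' end, and whether that end lies in the deleted part is not given in the sources used here. All 8 genes of a macrophage list were detected in every sample, with Lyz2 in at least 98.9% of cells. Ighm, which encodes the heavy chain of IgM, stood apart between the genotypes, in 17.2, 10.8 and 8.56% of wild-type cells and 52.2, 45.7 and 42.4% of Rad21-/- cells. The 3 genes of the B cell list present in the matrix, of 6 listed, were all detected in every sample, and their summed level was 27.9 to 59.9 CPM in wild-type and 180 to 188 CPM in Rad21-/- samples. The other 2 genes of that list, Ms4a1 and Pax5, were found in 3.11 to 9.14% of the cells of each sample. Lists of T or NK cell, neutrophil, dendritic cell and fibroblast genes summed to at most 61.0 CPM in any sample, the highest being the neutrophil list in wild-type cells at 8 h, and Pf4, the erythroid or megakaryocyte gene present, had 209 to 224 CPM in wild-type and 301 to 383 CPM in Rad21-/- samples. The part of these transcripts in the genotype differences was not tested.

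Promoter sequence, matched by symbol in RefSeq (GRCm38.p6), was searched for 7 of the 10 genes. Tlr4 and Ly96 had no window, and Cd14 was left out of the search. The 250 bases before the start are shown for Myd88, which holds 1 of the motifs searched, and for Peli1 and Aoah, which carried opposite differences between the genotypes. Capitals mark the interferon-stimulated response element GAAANNGAAA.
Myd88, chr9:119340019-119340268, minus strand: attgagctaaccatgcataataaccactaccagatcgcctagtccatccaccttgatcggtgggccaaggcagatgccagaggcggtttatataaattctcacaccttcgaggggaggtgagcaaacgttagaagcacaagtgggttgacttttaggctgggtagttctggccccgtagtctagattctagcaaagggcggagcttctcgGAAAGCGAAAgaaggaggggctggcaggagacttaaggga
Peli1, chr11:21091074-21091323, plus strand: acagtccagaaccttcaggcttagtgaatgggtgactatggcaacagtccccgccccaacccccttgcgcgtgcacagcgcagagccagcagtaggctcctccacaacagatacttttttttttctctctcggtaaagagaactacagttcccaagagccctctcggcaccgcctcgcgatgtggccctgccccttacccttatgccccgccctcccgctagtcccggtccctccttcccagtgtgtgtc
Aoah, chr13:20793863-20794112, plus strand: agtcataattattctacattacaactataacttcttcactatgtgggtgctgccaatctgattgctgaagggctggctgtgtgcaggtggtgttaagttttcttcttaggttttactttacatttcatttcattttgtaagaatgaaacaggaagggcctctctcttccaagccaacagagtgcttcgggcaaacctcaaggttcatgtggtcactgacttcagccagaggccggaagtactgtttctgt
Each window searched ran from 250 bases before to 50 bases after the start and was read on both strands. The element of Myd88 began 40 bases before the start, and 3.44% of all 32841 promoter windows held such an element. Aoah had TTTCTTTTTC, the same element on the opposite strand, 18 bases past its start, and Peli1 and Irak2 had none of the motifs. GAGGAA, the core of the site of the macrophage factor PU.1, was found in the windows of Ticam1, Traf6 and Irak3 and in 28.3% of all windows. The kappaB motif and the AP-1 motif TGANTCA were found in 8.46 and 7.81% of all windows. Neither was in the 8 windows of the 7 genes searched, and nothing was read for Cd14, Tlr4 and Ly96. These matches are letters in a window and were not tested as binding sites.

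The sensing genes differed in their course. Cd14, the co-receptor that loads LPS onto the receptor, rose in both genotypes and both times, while Tlr4 had its lowest level at 8 h and Ly96 was detected in few cells throughout. Transcripts of Cd14 were found in 86.2, 98.9 and 98.1% of wild-type cells at 0, 2 and 8 h, and in 48.1, 87.1 and 98.2% of Rad21-/- cells. Mean levels were 638, 1825 and 1937 CPM in wild-type and 135, 538 and 1013 CPM in Rad21-/- macrophages. Untreated Rad21-/- cells were the lowest of the 6 samples, and after 8 h of LPS their share had reached that of wild-type cells whereas their level had not. The rise over untreated cells was 2.86-fold at 2 h and 3.03-fold at 8 h in wild-type cells, and 3.97-fold and 7.48-fold in Rad21-/- cells. In the order of the levels, wild-type 8 h and wild-type 2 h cells did not differ beyond counting error (log2 ratio of summed UMIs -0.03 to 0.13), and every other pair of neighbours did.

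**Figure D1:**
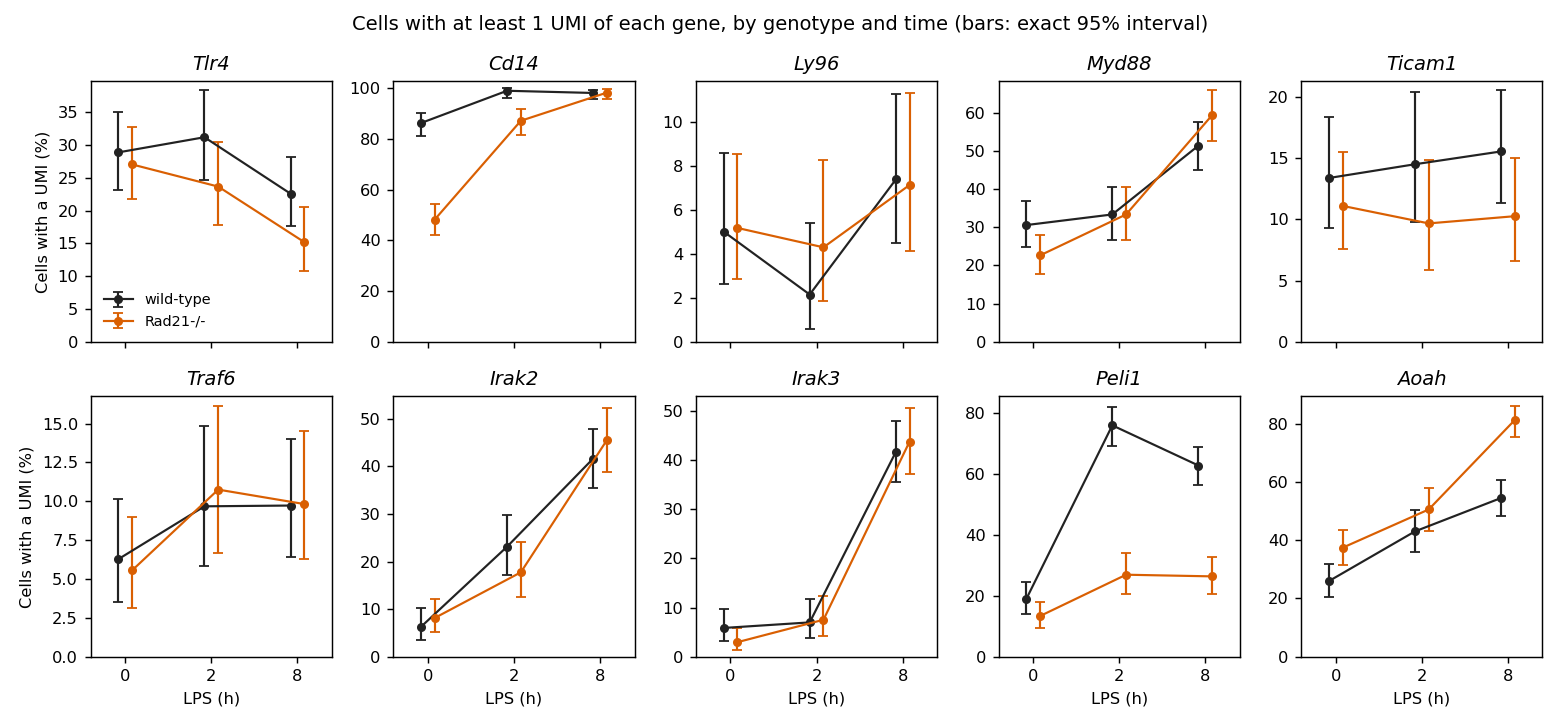
The share of cells with at least 1 UMI of each gene (y axis, %) is plotted against hours of LPS (x axis) for wild-type (black) and Rad21-/- (orange) macrophages, 1 sample per point, with exact 95% intervals as bars and a y scale of its own in each panel. Cd14 converged at 8 h near 98%, Peli1 separated to 75.8% against 26.9% at 2 h, and Aoah to 54.5% against 81.25% at 8 h.

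Tlr4 (chr4:66827551-66846581), the signalling receptor, was detected in 28.9, 31.2 and 22.6% of wild-type cells and in 27.0, 23.7 and 15.2% of Rad21-/- cells at 0, 2 and 8 h. The mean level of Tlr4 was 64.3, 61.7 and 42.9 CPM in wild-type and 53.2, 46.3 and 19.9 CPM in Rad21-/- cells. The 8 h sample was thus the lowest of each genotype, and the Rad21-/- 8 h sample was the lowest of all. In Rad21-/- cells Tlr4 fell 2.67-fold by 8 h (log2 ratio of mean CPM -1.42, interval of the UMI ratio -1.87 to -0.72, and -0.86, short of 2-fold, with summed UMIs of all wells), and in wild-type cells the ratio at 8 h was -0.58 (-0.99 to -0.05), short of 2-fold. Only the step from wild-type 8 h to Rad21-/- 8 h lay beyond counting error among neighbours in the order of Tlr4 levels. Over the 6 samples, the genes whose log2 level ran most alike with Tlr4 among 4056 compared were Rpl22l1 (Pearson's r = 0.995), Tpd52 (0.977) and Pycard (0.975), a description over samples that share their pools and time points.

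Ly96, whose product MD-2 holds the lipid part of LPS, was detected in 5.02, 2.15 and 7.39% of wild-type cells and in 5.19, 4.30 and 7.14% of Rad21-/- cells. It had between 7 and 25 UMIs per sample, and no neighbours in the order of its levels differed beyond counting error. In wild-type cells at 2 h, 5 of its 7 UMIs lay in wells of more than 25000 UMIs, and the interval of the difference in share from untreated cells held 0. Cells were also thinned at random to 3800 UMIs each, so that all had the same depth, which left out 21 to 47 shallower cells per sample. Then at least 1 of the transcripts of Tlr4, Cd14 and Ly96 was missing from nearly every cell. All 3 were found together in 2.60% of untreated wild-type cells and 0.448% of untreated Rad21-/- cells, and in 0 cells of the other 4 samples, which allows shares of up to 1.95% in the smallest of them (3 cells). None of the 3 was found in 19.3, 1.82 and 0.877% of wild-type cells at 0, 2 and 8 h and in 48.9, 22.7 and 4.43% of Rad21-/- cells.

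Myd88 and Irak2, of the MYD88 arm, had their highest levels at 8 h in both genotypes. Myd88 (chr9:119335934-119340018), the adaptor that recruits the IRAK kinases, was detected in 30.5, 33.3 and 51.4% of wild-type cells and in 22.6, 33.3 and 59.4% of Rad21-/- cells at 0, 2 and 8 h. The mean level was 70.9, 65.8 and 130.6 CPM in wild-type and 46.9, 68.1 and 128 CPM in Rad21-/- cells. Both 8 h samples were the highest, and untreated Rad21-/- cells were the lowest. The 8 h level was 2.73-fold that of untreated cells in Rad21-/- (1.00 to 1.77 on the log2 scale of summed UMIs), past 2-fold, and 1.84-fold in wild-type cells (0.57 to 1.27), short of it. Leaving out a pool of 47 wild-type and 47 Rad21-/- untreated cells took the wild-type log2 ratio from 0.88 to 1.09, past 2-fold. The 2 genotypes at 8 h did not differ beyond counting error.

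Irak2, a kinase family member that sustains signalling downstream of MYD88, was detected in 6.28, 23.1 and 41.6% of wild-type cells and in 8.15, 17.7 and 45.5% of Rad21-/- cells. Its mean level was 14.3, 38.04 and 89.9 CPM in wild-type and 12.8, 31.3 and 85.9 CPM in Rad21-/- cells. The samples fell into 3 pairs by time, and no pair of equal time differed between the genotypes beyond counting error. Irak2 rose 2.66-fold at 2 h and 6.29-fold at 8 h in wild-type cells and 6.70-fold at 8 h in Rad21-/- cells. At 2 h in Rad21-/- cells the ratio was 2.44 with 69 UMIs in the samples compared, under the 100 UMIs asked for. Of the 136 Irak2 UMIs of wild-type cells at 2 h, 93 lay in wells of more than 25000 UMIs, and without these wells the wild-type pair would also be under 100, so that the calls at 2 h do not set the genotypes apart.

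Traf6, the ubiquitin ligase that links the IRAK complex to the kinase TAK1, was detected in 6.28, 9.68 and 9.73% of wild-type cells and in 5.56, 10.8 and 9.82% of Rad21-/- cells. It never reached 100 UMIs in a pair of samples, and no neighbours in the order of its levels differed beyond counting error. Ticam1, the adaptor of the endosomal arm, was detected in 13.4, 14.5 and 15.6% of wild-type cells and in 11.1, 9.68 and 10.3% of Rad21-/- cells. Its level at 8 h was 30.6 CPM in wild-type and 14.2 CPM in Rad21-/- cells, a log2 ratio of -1.10 with an interval of -1.86 to -0.30 but with only 89 UMIs in both samples.

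Irak3 stood high only at 8 h among the times sampled. This inhibitor (chr10:120141648-120202130) was detected in 5.86, 6.99 and 41.6% of wild-type cells and in 2.96, 7.53 and 43.75% of Rad21-/- cells at 0, 2 and 8 h. Its mean level was 10.8, 8.51 and 91.1 CPM in wild-type and 8.26, 9.94 and 92.9 CPM in Rad21-/- cells. The untreated and 2 h samples of both genotypes lay together, and both 8 h samples stood far above them. By 8 h Irak3 had risen 8.40-fold in wild-type cells (2.51 to 4.21 on the log2 scale of summed UMIs) and 11.2-fold in Rad21-/- cells (2.85 to 4.68), and the genotypes at 8 h differed by a log2 ratio of 0.03 (-0.35 to 0.31). The log2 levels of Mrpl52 (r = 0.999), Gas7 (0.994) and Ms4a6c (0.991) correlated most with those of Irak3 over the 6 samples. Such an r leaves out the size of a change.

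Peli1 had an early peak in wild-type cells that was much smaller in Rad21-/- cells. Peli1 (chr11:21091283-21150327) encodes the ubiquitin ligase Pellino 1, which acts with the IRAK kinases and on RIPK1 in the TRIF arm. It was detected in 18.8, 75.8 and 62.6% of wild-type cells at 0, 2 and 8 h and in 13.3, 26.9 and 26.3% of Rad21-/- cells. Its mean level was 41.5, 294 and 196 CPM in wild-type and 21.6, 54.5 and 39.3 CPM in Rad21-/- cells. The wild-type 2 h and 8 h samples stood above the other 4, and wild-type 2 h was above wild-type 8 h beyond counting error (0.44 to 0.89 on the log2 scale). The rise at 2 h was 7.09-fold in wild-type and 2.52-fold in Rad21-/- cells, and at 8 h it was 4.72-fold in wild-type cells, while the ratio of 1.82 in Rad21-/- cells did not reach 2-fold. Leaving out a pool of 43 wild-type and 48 Rad21-/- untreated cells took the log2 ratio in Rad21-/- cells at 8 h from 0.86 to 1.05, past 2-fold, and summed UMIs gave 1.10. One pool of untreated cells, with 46 wild-type cells of which 41.3% had a Peli1 UMI, weighed on these rises, since without it the wild-type log2 ratio went from 2.83 to 3.27 at 2 h and from 2.24 to 2.68 at 8 h. The pseudogene 2610024D14Rik, which overlaps Peli1, had 3.38 to 5.81 CPM in every sample, and where counting did not use strand the reads of overlapping genes cannot be told apart. The same holds for Irak3, which Gm34545, Gm40781 and Gm38500 overlap, and for Aoah, which Gm32242 overlaps, and these 4 have no row in the matrix. The log2 levels of Car10 (r = 0.995), Actg1 (0.992) and Gna13 (0.977) correlated most with those of Peli1. The r leaves out the size of a change, and Car10 ran only from 77.5 to 97.9 CPM.

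Aoah (chr13:20794103-21036617), the enzyme that inactivates LPS, had a higher level at each later time in both genotypes and a higher level in Rad21-/- than in wild-type cells at each time. It was detected in 25.9, 43.01 and 54.5% of wild-type cells and in 37.4, 50.5 and 81.25% of Rad21-/- cells. Levels averaged 53.7, 87.6 and 137.9 CPM in wild-type and 76.3, 128 and 277 CPM in Rad21-/- cells. The Rad21-/- 8 h sample was the highest, and the wild-type 8 h sample did not differ from Rad21-/- cells at 2 h beyond counting error. By 8 h Aoah had risen 2.57-fold in wild-type cells (0.89 to 1.65 on the log2 scale of summed UMIs) and 3.64-fold in Rad21-/- cells (1.47 to 2.05). After thinning to 3800 UMIs the wild-type log2 ratio was 0.94 in place of 1.36, short of 2-fold. At 2 h the ratios were 1.63 and 1.67, below 2-fold. The log2 levels of Cacnb2 (r = 0.994), Mapkapk2 (0.993) and Gm7899 (0.981) correlated most with those of Aoah. Cacnb2 ran only from 65.5 to 100.5 CPM, since r leaves out the size of a change.

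Counted over the set, 7 of the 10 genes had enough UMIs at 2 h in wild-type cells, and 3 of these rose (Cd14, Irak2 and Peli1) and 0 fell, where 4.21% of 6915 genes rose and 2.44% fell. At 8 h in wild-type cells 5 of 7 rose (Cd14, Irak2, Irak3, Peli1 and Aoah) and 0 fell, where 9.52% of 5601 genes rose and 12.5% fell. In Rad21-/- cells 2 of 5 rose at 2 h (Cd14 and Peli1) and 0 fell, where 3.53% of 5609 genes rose and 1.16% fell. At 8 h 5 of 7 rose (Cd14, Myd88, Irak2, Irak3 and Aoah) and Tlr4 fell, where 7.53% of 6706 genes rose and 4.92% fell. The untreated sample of a genotype is shared by its 2 h and 8 h comparisons. The calls of Peli1, Myd88 and Tlr4 at 8 h differed between the genotypes, but without 1 pool of untreated cells each Peli1 passed 2-fold in Rad21-/- and Myd88 in wild-type cells, and with summed UMIs Tlr4 did not pass in Rad21-/- cells. A gene can reach 100 UMIs through the sample in which it is high, so the counts describe the genes that passed and no more. Over all 10 genes the share of positive cells was higher than in untreated cells for 9 at 2 h and 9 at 8 h in wild-type and for 7 and 8 in Rad21-/- cells. Their median difference in share was 3.10 and 16.3 points in wild-type and 7.40 and 24.9 points in Rad21-/- cells. Over all genes with enough UMIs it was 2.44 and -0.96 points in wild-type and 2.05 and 5.10 points in Rad21-/- cells. A higher share was thus also common among genes at large, apart from wild-type cells at 8 h. With 1 sample per group the differences between the genotypes in the LPS response could not be tested.

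**Figure D2:**
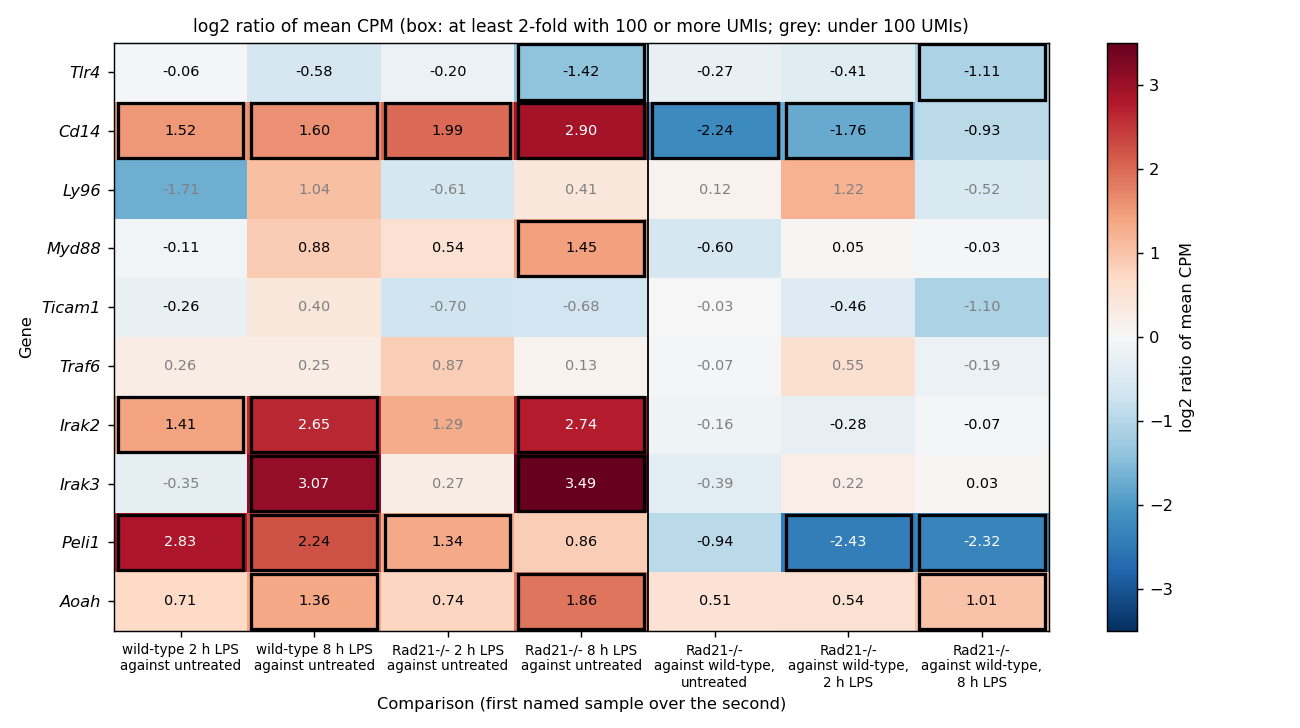
Colours and numbers give the log2 ratio of mean CPM for each gene (rows) in 4 LPS comparisons and 3 genotype comparisons (columns, the first named sample over the second), with 1 sample per group and therefore no error bar. Boxes mark ratios of at least 2-fold with 100 or more UMIs, and grey numbers mark pairs with fewer UMIs; Peli1 ran from 2.83 in wild-type cells at 2 h to -2.43 in Rad21-/- against wild-type cells.

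Comparison of Rad21-/- with wild-type cells addressed how these transcripts differed without Rad21. In untreated cells, 5 of the 10 genes had enough UMIs, 0 were higher and 1 was lower by at least 2-fold (Cd14), where 1.36% of 5804 genes were higher and 3.81% lower. At 2 h, 0 of 7 were higher and 2 were lower (Cd14 and Peli1), where 2.43% of 6720 genes were higher and 5.13% lower. At 8 h, 1 of 7 was higher (Aoah) and 2 were lower (Peli1 and Tlr4), where 6.12% of 6354 genes were higher and 5.67% lower. The Tlr4 and Aoah calls at 8 h lay close to 2-fold, and leaving out a pool with 41 wild-type cells and 46 Rad21-/- cells moved their log2 ratios from -1.11 to -0.99 and from 1.01 to 0.99 and ended both calls. Summed UMIs (-0.71 and 0.99) and equal weight for each pool (-0.95 and 0.92) did the same. Thinning to 3800 UMIs also ended the Tlr4 call (-0.95), and the Aoah call was lost as well without another pool (0.96), after thinning to 5500 UMIs (0.94) and without the 50 most abundant genes in the totals (0.98). Untreated Peli1 lay just short of 2-fold at -0.94, and it passed at -1.08 when a pool with 24 wild-type and 23 Rad21-/- cells was left out and at -1.26 when one with 43 and 48 cells was. Without a pool of 46 and 48 cells it shrank to -0.59, so the untreated ratio depended on single pools in both directions.

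As a ratio of mean CPM, the Cd14 difference was largest in untreated cells, where the Rad21-/- level was 4.71-fold lower (log2 ratio -2.24, interval -2.39 to -1.97). After 2 h it was 3.39-fold lower (-1.76, interval -2.03 to -1.77 for summed UMIs in wells of at most 25000 UMIs) and after 8 h 1.91-fold lower (-0.93, interval -1.002 to -0.83). The intervals of untreated cells and of 2 h overlapped, so the order of these ratios was not settled. In untreated cells the log2 ratio was made up of -0.84 from the share of positive cells and -1.40 from the level per positive cell. With few UMIs per cell a lower level also lowers the share, so these parts are not independent. At 8 h the share was 98.1 and 98.2%, too near 100% for a share part to show, and the level per positive cell gave -0.94. Thinned to 3800 UMIs, the shares at 8 h were 98.7% in wild-type and 95.6% in Rad21-/- cells. Within pools the share of Cd14-positive cells was lower in Rad21-/- cells in 8 of 8 pools untreated and in 4 of 4 at 2 h. At 8 h the mean level was lower in 6 of 6 pools, and the share was lower in 3 and higher in 2. After thinning to 3800 UMIs the median wild-type cell had 2, 7 and 7 Cd14 UMIs at 0, 2 and 8 h, and the median Rad21-/- cell 0, 1 and 3. At least 10 UMIs were found in 21.8 and 28.1% of wild-type cells at 2 and 8 h and in 0 and 3.94% of Rad21-/- cells, where the 0 allows up to 1.95%.

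**Figure D3:**
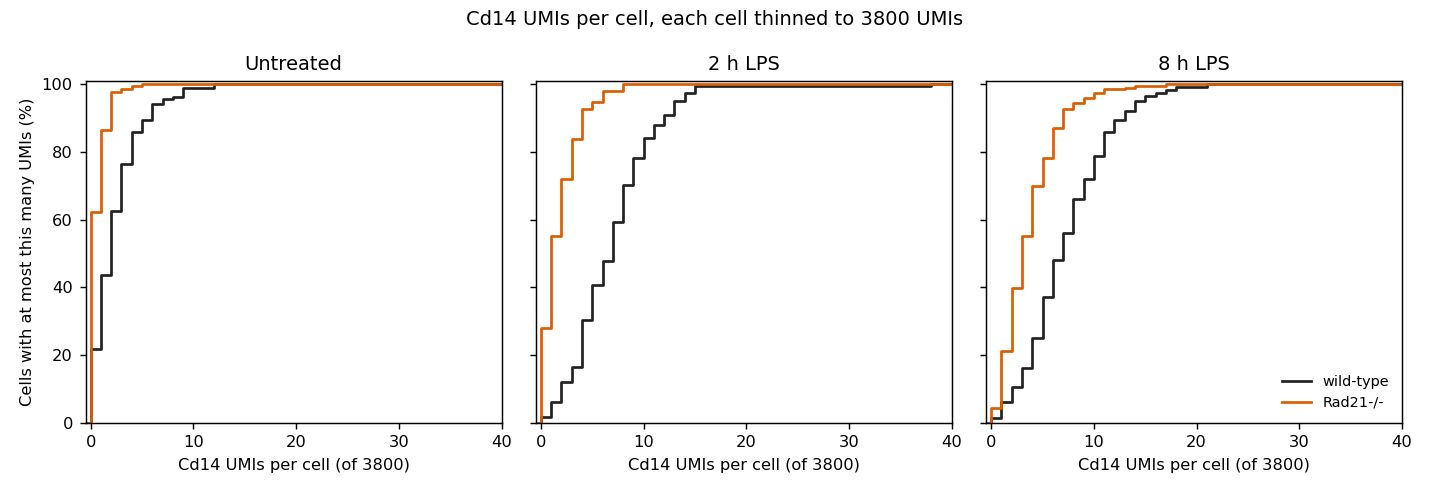
Cumulative share of cells (y axis, %) with at most a given number of Cd14 UMIs (x axis) after each cell was thinned to 3800 UMIs, for wild-type (black) and Rad21-/- (orange) cells, 1 sample per line. The Rad21-/- line lies to the left at each time, with medians of 0, 1 and 3 UMIs against 2, 7 and 7.

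The Peli1 level was 5.39-fold lower in Rad21-/- cells at 2 h (log2 ratio -2.43, interval -2.94 to -2.16) and 4.98-fold lower at 8 h (-2.32, interval -2.64 to -1.87). In share of cells the difference was -48.9 percentage points at 2 h (interval -57.02 to -39.4) and -36.3 points at 8 h (-44.1 to -27.7). The log2 ratio at 2 h was made up of -1.50 from the share and -0.94 from the level per positive cell. A positive cell holds at least 1 UMI, and thinned cells averaged 1.18 Peli1 UMIs in wild-type and 0.175 in Rad21-/- cells. At so few UMIs a lower level also lowers the share. The split therefore cannot tell fewer expressing cells from less transcript per cell. Within pools the share was lower in 4 of 4 pools at 2 h, with 61.0 to 86.05% of wild-type and 17.8 to 31.1% of Rad21-/- cells, and in 6 of 6 pools at 8 h. The pools of the genotypes, which are parts of 1 sample each, thus did not overlap at 2 h. With equal weight for each pool, those of fewer than 10 cells included, the log2 ratio at 2 h was -1.33, and that of the 2 h rise in Rad21-/- cells was 2.29 in place of 1.34. In untreated cells the share was lower in 5 of 8 pools and higher in 3. The log2 change on LPS in Rad21-/- cells minus that in wild-type cells was -1.49 at 2 h and -1.38 at 8 h, a difference that could not be tested.

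Aoah was higher in Rad21-/- cells by a log2 ratio of 0.51 in untreated cells, with an interval of 0.07 to 0.89. The ratio was 0.54 after 2 h of LPS (0.16 to 0.87) and 1.01 after 8 h (0.73 to 1.21), the latter a 2.01-fold difference. Its share was higher in 7 of 8 pools untreated, in 2 of 4 at 2 h, where the mean level was higher in 4 of 4, and in 6 of 6 at 8 h. Equal weight for each pool, small ones included, gave a log2 ratio of 1.25 at 2 h. At 8 h the pool shares were 43.9 to 72.7% in wild-type and 61.5 to 91.3% in Rad21-/- cells, and the ranges overlapped. Rad21-/- cells at 8 h were the deeper, with a median of 7055.5 UMIs against 5819. After thinning, the difference in share at 8 h was 24.9 points (15.5 to 33.7) against 26.8 points before, and in untreated cells it was 5.03 points (-3.31 to 13.1) against 11.5.

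**Figure D4:**
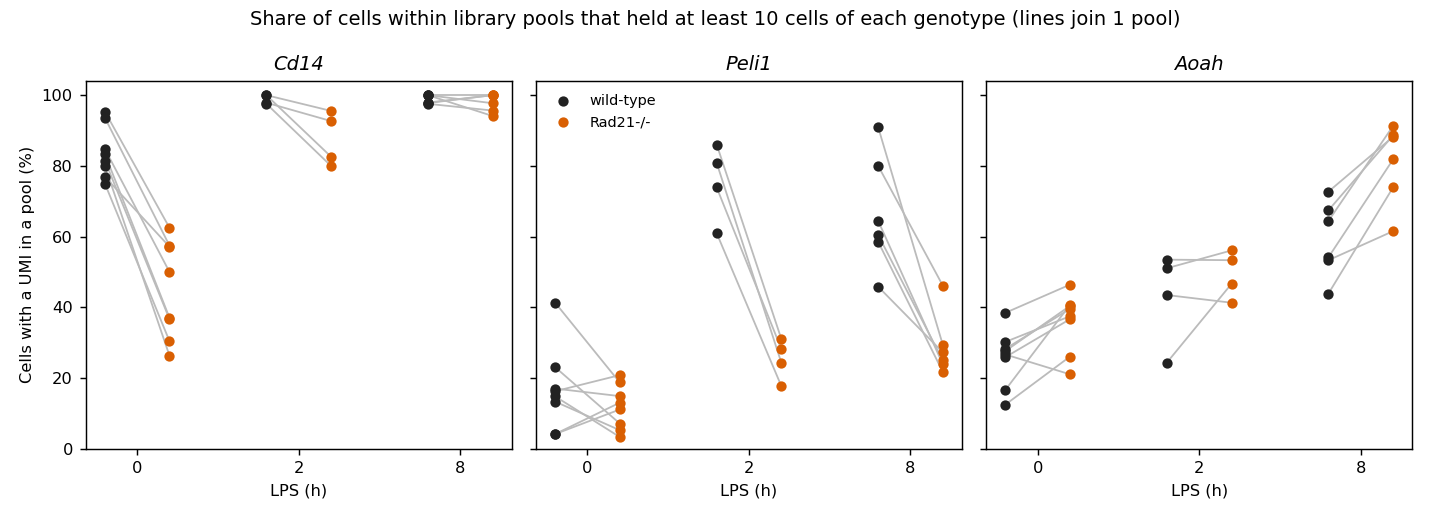
Share of cells with at least 1 UMI (y axis, %) of Cd14, Peli1 and Aoah in each library pool with at least 10 cells of each genotype, by hours of LPS (x axis), with lines joining wild-type (black) and Rad21-/- (orange) cells of the same pool. At 2 h the 4 pools of Peli1 ran from 61.0 to 86.05% in wild-type and from 17.8 to 31.1% in Rad21-/- cells.

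For Tlr4 at 8 h, the difference in share was -7.39 points (interval -14.2 to -0.33) and -4.40 points after thinning (-10.1 to 1.42). Within pools the share was lower in Rad21-/- cells in 5 and higher in 1 of 6, and the mean level was lower in 6 of 6. Untreated, the Tlr4 share was lower in 4 and higher in 3 of 8 pools. Irak2, Irak3 and Myd88 had log2 ratios between -0.07 and 0.03 at 8 h, each with an interval that held 0. Of the macrophage list, 0 of 6 genes with enough UMIs differed by 2-fold between the genotypes untreated and 0 of 7 at 2 h. Of all genes, 1.36 and 2.43% were higher and 3.81 and 5.13% lower in these comparisons. At 8 h 2 of 6 genes of the list were higher and 1 was lower, where 6.12% of all genes were higher and 5.67% lower. Csf1r, the receptor for the growth factor M-CSF, had 294, 304 and 130 CPM in wild-type and 457, 518 and 306 CPM in Rad21-/- cells at 0, 2 and 8 h, and Lyz2, which encodes lysozyme, had 6410, 6294 and 3735 CPM against 3365, 3435 and 2529 CPM. The ratio for Lyz2 stayed short of 2-fold at each time. The part of these genes in the differences of Cd14, Peli1 and Aoah was not tested.

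The other genes of the pathway were read in 4 lists that did not include the 10 genes. At 2 h in wild-type cells the genes that rose were 3 of 12 inhibitors with enough UMIs, 1 of 9 receptors, 1 of 15 adaptors, kinases and ligases and 0 of 5 genes of LPS clearance, and 0 genes of the 4 lists fell, where 4.21% of all genes rose and 2.44% fell. The largest rises were those of Tnfaip3, which encodes the ubiquitin-editing inhibitor A20 and went from 10.3 to 424 CPM, of the A20-binding Tnip3 from 52.6 to 353 CPM, of the ubiquitin ligase Birc3 from 21.2 to 100.95 CPM and of the lipoprotein receptor Tlr2 from 42.6 to 200 CPM. In Rad21-/- cells at 2 h the same 4 genes led, with Tnfaip3 going from 4.52 to 281 CPM, Tnip3 from 23.7 to 505, Tlr2 from 25.8 to 284 and Birc3 from 17.6 to 120 CPM.

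At 8 h in wild-type cells, 7 of 12 adaptors, kinases and ligases with enough UMIs rose and 0 fell, where 9.52% of all genes rose and 12.5% fell. Some of the 7 reached 100 UMIs mostly through the 8 h sample, and over all 29 genes of that list the share of positive cells was higher for 17 and lower for 12. The median difference in share was 1.51 points over that list and -0.96 points over all genes with enough UMIs. Of the inhibitors 6 of 12 rose and 2 fell, of the receptors 3 of 10 rose and 2 fell, and of the genes of LPS clearance 3 of 5 fell and 0 rose. Tnip3 reached 1513 CPM and Tnfaip3 322 CPM, the kinase Map3k8 went from 6.61 to 59.1 CPM and the RNA receptor Tlr3 from 9.501 to 60.6 CPM. The largest falls were in Tlr13, a receptor for bacterial ribosomal RNA, from 63.2 to 11.9 CPM, in the inhibitory receptor Cd300a from 94.5 to 20.4 CPM, in the scavenger receptor Stab1 from 336 to 79.8 CPM and in the lipid phosphatase Inpp5d from 83.5 to 21.5 CPM. In Rad21-/- cells at 8 h, 4 of 19 adaptors, kinases and ligases rose and 1 fell, 5 of 12 inhibitors rose and 2 fell, 1 of 9 receptors rose and 0 fell, and 1 of 5 clearance genes fell and 0 rose, where 7.53% of all genes rose and 4.92% fell. Tnip3 rose to 718 CPM and Tnfaip3 to 149 CPM, the kinase Ikbke went from 14.6 to 159 CPM and Birc3 to 146 CPM, and the falls were in Inpp5d, Cd300a, Lrp1 and Rbck1.

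Between the genotypes, the differences among the other pathway genes were most numerous at 8 h. In untreated Rad21-/- cells 3 of 11 inhibitors were lower, Lilrb4a (306 against 773 CPM), Trim30a (50.3 against 122.7 CPM) and Tnip3 (23.7 against 52.6 CPM), and 0 genes of the other 3 lists differed by 2-fold, where 3.81% of all genes were lower and 1.36% higher. At 2 h the inhibitory receptor Lilrb4a was lower (458 against 1097 CPM), and the lipoprotein receptor Scarb1 (161.2 against 62.0 CPM), the kinase Irak4 (44.6 against 17.3 CPM) and Cd300a (173 against 80.2 CPM) were higher, where 5.13% of all genes were lower and 2.43% higher. At 8 h 4 of 12 inhibitors, 2 of 16 adaptors, kinases and ligases and 2 of 10 receptors were lower in Rad21-/- cells, led by Tlr3 (17.8 against 60.6 CPM), Tlr1 (25.9 against 62.1 CPM), Trafd1 (85.0 against 193 CPM) and Tnfaip3 (149 against 322 CPM). Another 2 receptors and 2 of 5 clearance genes were higher, Scarb1 (123.4 against 31.4 CPM), Tlr13 (29.2 against 11.9 CPM), Cd180 (204 against 90.5 CPM) and Stab1 (168 against 79.8 CPM), where 5.67% of all genes were lower and 6.12% higher. In wild-type cells these 4 genes had all fallen from the untreated level by 8 h.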

How the data were processed

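Single macrophages were sorted into plates and sequenced by MARS-seq. According to the methods and the submitters' processing notes, the authors used GEMTools 1.7.0, the GRCm38.p4 assembly and Gencode M8, removed wells with many spike-in or unmapped reads, and merged reads that shared gene and UMI. The deposited values are raw UMI counts for each gene in each cell. Whether the counting used strand is not given in the sources used here. No gene of the deposited matrix was filtered out here and no correction was made for ambient RNA, and no doublet caller was run because cells were sorted singly.

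Groups came from the sample titles and cells from the column names, with 0 columns left unassigned. The software was scipy 1.17.1 for intervals, numpy 2.4.6 and pandas 2.3.3 for shares, CPM and ratios, and matplotlib 3.10.9 for plots, under Python 3.11.15. A limit of 3 counts stands behind a 0. The interval of a UMI ratio used wells of at most 25000 UMIs, while the log2 ratios of mean CPM used all wells. Genes whose log2 levels correlated most with Tlr4, Irak3, Peli1 or Aoah were sought among those with at least 500 UMIs. Steps were tested on simulated counts. The genes and lists were chosen with earlier results of these data known. From the pathway lists at most 4 genes per comparison and direction were named. Alternatives were thinning to 3800 or 5500 UMIs, leaving out deep wells or each pool, equal weight per pool, summed UMIs, totals without the 50 most abundant genes, 2 UMIs per positive cell, at least 20 UMIs, and a ratio of 1.5.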

Additional observations from a re-analysis of the deposited data

Results flagged for a closer look

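For 3 genes the change in mean CPM on LPS had opposite signs in wild-type and Rad21-/- cells, with 1 sample per group, and these differences were not tested. Myd88 at 2 h changed by -0.11 in wild-type and 0.54 in Rad21-/- cells on the log2 scale, a difference of 0.65. Irak3 at 2 h changed by -0.35 and 0.27, a difference of 0.62, with 39 and 28 UMIs in the pairs of samples. Ticam1 at 8 h changed by 0.40 in wild-type and -0.68 in Rad21-/- cells, a difference of -1.08, with 85 and 77 UMIs. Without 1 pool the ratio of Myd88 in wild-type cells ranged from -0.23 to 0.10 and that of Irak3 in Rad21-/- cells from -0.54 to 0.74, so that either sign could turn. The shares of positive cells of both genes were higher at 2 h in both genotypes, by 2.79 and 10.7 points for Myd88 and 1.13 and 4.56 points for Irak3. For all 3 genes the intervals of the UMI ratios at the times named here held 0 in both genotypes.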

How the results depend on the processing

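No paired analysis was possible because each group holds 1 sample. The number of genes lower or higher by 2-fold in untreated Rad21-/- cells, 1 in the report, was 2 after thinning to 3800 UMIs, 2 with summed UMIs and 3 at a ratio of 1.5, and it was 1 to 2 when 1 pool was left out. At 8 h this number, 3 in the report, was 1 with equal weight per pool, 1 with summed UMIs and 1 to 3 when 1 pool was left out. The log2 ratio of Cd14 in Rad21-/- against wild-type cells at 2 h, -1.76 in the report, was -1.97 and -2.14 after thinning to 3800 and 5500 UMIs, -2.05 with equal weight per pool and -1.55 with summed UMIs. With equal weight per pool, the ratio of Peli1 at 2 h was -1.33 and that of Aoah 1.25, where pools of few cells weigh as much as large ones, and the ratio of Cd14 at 8 h was -0.85. The difference in share of Irak3, Rad21-/- 2 h LPS against untreated, became -0.0358 percentage points when 2 UMIs were asked of a positive cell. Apart from leaving out pools, 287 differences in share and 390 log2 ratios moved by less than their counting error, and 62 and 30 moved by more. With a single sample per group, neither culture nor mouse variation could be measured, and Ly96 and Traf6 were too rare for ratios to be read.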
